A study of Mus musculus with 25 samples.

Results

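Cbfa2t3, also called ETO2 or MTG16, lies on chromosome 8 of the mouse, and DNA methylation was read here at every listed CpG with a start between 125145000 and 125225000 on the mm9 build. The interval was picked with results of these data known, because methylation between 125198001 and 125202000 was higher after every transplantation than in young and old haematopoietic stem cells (HSCs). The deposited files list 355 CpGs in the interval. Of these, 239 had at least 5 reads in at least 1 of the 25 libraries, 73 had that depth in all 25 libraries, and 116 never reached it. Over the whole series, 1587545 CpGs had at least 5 reads in some library and 588138 in all of them. The window of the gain held 39 of the 239 CpGs and 18 of the 73.

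The libraries were made by reduced representation bisulfite sequencing (RRBS), which reads CpG-rich restriction fragments: bisulfite turns an unmethylated cytosine into a base read as thymine, so that the methylated share of the reads over a CpG is its methylation level. All libraries came from HSCs of C57Bl/6 mice, and the design asked how methylation differs over ontogeny and after forced proliferation. The transplanted groups were bone marrow HSCs recovered after 10 (n = 3), 50 (n = 1) or 500 (n = 1) young HSCs, or 10 (n = 2), 50 (n = 1) or 500 (n = 3) old HSCs, had been transplanted. The 5-fluorouracil (5-FU) groups were bone marrow HSCs of mice that were 3.5 months old and then aged 6 months further; they got no drug (0 doses, n = 3) or 2 (n = 3) or 4 (n = 2) doses of 5-FU, which kills dividing cells. The remaining groups were fetal liver HSCs at e14.5 (fetal, n = 2), and bone marrow HSCs at 3.5 months (young, n = 2) and at 25 months (old, n = 2). The labels used here do not give the time between transplantation and harvest or the hosts, so transplantation and the time added by it cannot be told apart. The labels do not say whether the replicates of a group are different animals, and p-values measure the spread between these libraries.

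Cbfa2t3 encodes a transcriptional corepressor of the ETO (MTG) family, to which Runx1t1 and Cbfa2t2 also belong. The protein does not bind a specific DNA sequence itself: it is brought to DNA by partners such as the TAL1, GATA, LMO2 and LDB1 complex of blood progenitors, and it recruits NCoR, SMRT and histone deacetylases such as HDAC3. It is known for restraining erythroid and megakaryocytic genes, and mouse HSCs without it renew themselves poorly. CpG methylation at island promoters is usually absent, whereas the flanks of islands, the shores, vary more between cell types and ages.

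RefSeq gives Cbfa2t3 a pair of start sites on the minus strand, and both promoter sequences are shown because the window lies directly downstream of one of them. They are from RefSeq (GRCm38.p6), run from 250 bases before to 50 bases after the start, 5′ to 3′ on the minus strand, and carry their CpGs in capitals. Each was placed on mm9 by the spacing of its CpGs, with no conversion of coordinates.
Cbfa2t3 internal promoter: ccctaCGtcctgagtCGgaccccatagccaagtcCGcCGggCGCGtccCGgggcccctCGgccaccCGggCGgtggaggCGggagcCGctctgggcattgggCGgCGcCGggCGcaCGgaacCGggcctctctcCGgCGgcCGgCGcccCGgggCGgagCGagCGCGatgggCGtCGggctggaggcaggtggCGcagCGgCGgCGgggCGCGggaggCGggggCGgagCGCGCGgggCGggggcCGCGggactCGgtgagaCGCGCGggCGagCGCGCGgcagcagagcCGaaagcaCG
Cbfa2t3 upstream promoter: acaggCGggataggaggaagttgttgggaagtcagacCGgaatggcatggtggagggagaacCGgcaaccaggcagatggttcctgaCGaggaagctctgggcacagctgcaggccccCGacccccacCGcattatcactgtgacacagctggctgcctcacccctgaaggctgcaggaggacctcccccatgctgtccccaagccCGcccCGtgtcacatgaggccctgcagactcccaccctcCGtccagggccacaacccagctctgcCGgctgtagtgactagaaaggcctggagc
The internal promoter lay at chr8:125202026-125202325, where 42 of 42 CpGs listed in the files matched its 53 CpGs, against 7 at the next best place. The upstream promoter lay at chr8:125222960-125223259, where 8 of 8 listed CpGs matched its 10 CpGs, against 4 at the next best place. The starts are 20.934 kb apart, and the window ends 26 bases short of the internal promoter sequence. The internal sequence is a dense CpG island: of 32851 RefSeq mouse promoters of the same length, 0.451% hold 53 or more CpGs, against 43.5% that hold at least the 10 of the upstream sequence. CCGG, the site of the enzyme usual in RRBS, occurs 8 times in the internal and 3 times in the upstream sequence. GATA, searched on both strands, occurs 0 times in the internal and 2 times in the upstream sequence, where 57.9% of all these promoters hold it at least once and 28.7% at least 2 times. The E-box core CANNTG, a palindrome, occurs 1 time in the internal and 4 times in the upstream sequence, where 72.3% of the promoters hold it at least once and 6.49% at least 4 times. These letters are a description of the sequence and were not tied to binding.

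Both promoters were nearly free of methylation in every group. Over the internal promoter the level lay between 0% and 1.87% in the 25 libraries, on 116 to 1116 reads per library. In 8 of the 25 libraries no read was methylated, which at these depths allows a level of up to 0.579% to 2.59% (3 reads of the total). Over the upstream promoter the level lay between 0% and 6.67% on 10 to 184 reads. There 9 libraries had no methylated read, which allows up to 2.94% to 30%, so the upstream promoter is poorly bounded in the shallowest of them. Intervals and limits given here cover counting error only, because RRBS reads without molecular identifiers are not independent molecules. A level is also a mean over all cells of a library: fewer cells with methylated alleles and less methylation in each cell cannot be told apart.

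To compare libraries, the reads of CpGs that reached 5 reads throughout were added up in tiles of 1000 bp. Within the window, 3 tiles held at least 3 such CpGs: a distal tile (chr8:125198001-125199000, 6 CpGs, centred 3.57 kb downstream of the internal start), a middle tile (chr8:125200001-125201000, 4 CpGs, centred 1.57 kb downstream) and a proximal tile (chr8:125201001-125202000, 8 CpGs, next to the island). The tile over the island itself (chr8:125202001-125203000) held 29 CpGs.

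The distal tile differed most between groups. After transplantation of 10 young HSCs its level was 85.8%, 67.0% and 79.9% of reads methylated, and after 10 old HSCs it was 79.5% and 72.4%. It was 73.7%, 77.3% and 63.4% after 500 old HSCs. The groups of 1 library read 81.2% after 50 young HSCs (95% Wilson interval 75.2% to 86.1%), 57.1% after 500 young HSCs (49.2% to 64.7%) and 70.1% after 50 old HSCs (63.5% to 76.0%). All 11 transplanted libraries lay between 57.1% and 85.8%, with a median of 73.7%, on 145 to 415 reads each. With 0 doses of 5-FU the level was 29.8%, 60.9% and 60.0%, with 2 doses 39.4%, 50.7% and 58.4%, and with 4 doses 43.9% and 58.0%. Fetal HSCs read 66.1% and 76.6%, young HSCs 25.8% and 19.4%, and old HSCs 20.9% and 13.7%. The 4 young and old libraries were thus the lowest of the 25. Of the transplanted libraries, 10 of 11 also lay above all 8 libraries of the 5-FU series, the exception being the 1 from 500 young HSCs, and they overlapped the fetal libraries.

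The window was chosen by the contrast of transplanted with young and old HSCs, so the next values describe it and carry no test. At the distal tile, transplanted minus young HSCs was 54.9 points for 10 cells, 58.6 for 50 cells and 34.5 for 500 cells. Transplanted minus old HSCs was 58.6 points for 10 cells, 52.8 for 50 cells and 54.1 for 500 cells. The mean over the 11 transplanted libraries minus the mean over the 4 young and old libraries was 53.4 points, the highest of the 53794 autosomal tiles with shared CpGs in all 25 libraries. The median tile of the genome went the other way, by −2.23 points. The distal and the proximal tile, 2 of the 9 tiles of the locus that could be compared, had every transplanted library above every young and old library, where 0.654% of all tiles did. None of the 9 had every transplanted library below, where 18.7% of all tiles did.

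**Figure D1:**
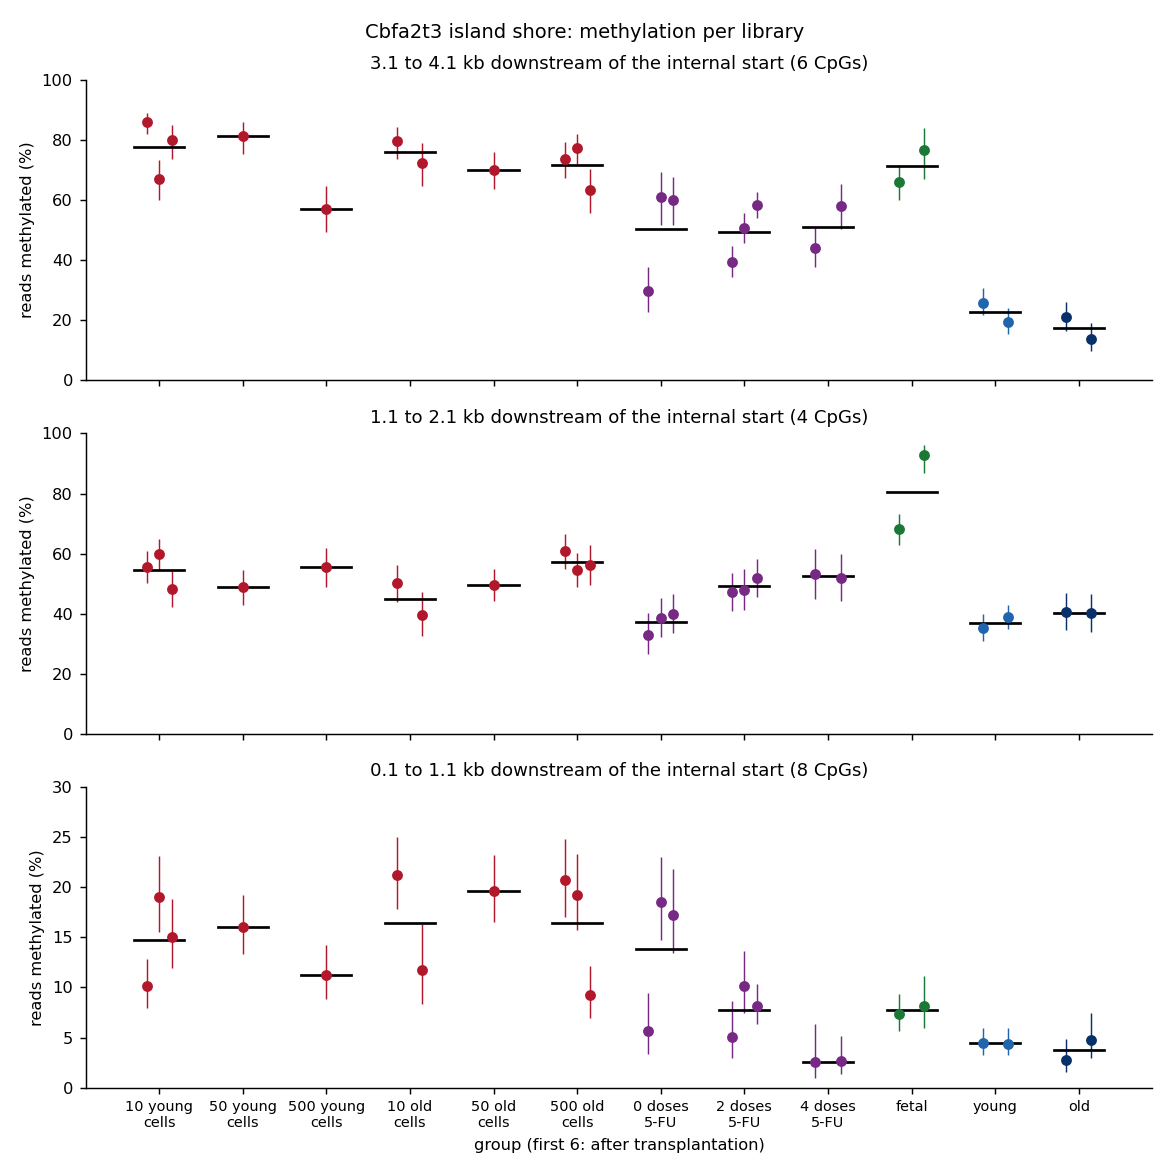
Methylation level (percent of reads, vertical axes) in each library by group (horizontal axis) for the distal tile (top), the middle tile (centre) and the proximal tile (bottom, with a shorter axis). Points are libraries with 95% Wilson intervals and bars are group means; in the distal tile the 11 transplanted libraries sit between 57.1% and 85.8% and the young and old libraries between 13.7% and 25.8%.

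Toward the island the same contrast became smaller and its shape changed. In the middle tile the level was 55.7%, 59.7% and 48.3% after 10 young HSCs and 50.2% and 39.7% after 10 old HSCs. It was 60.7%, 54.7% and 56.4% after 500 old HSCs. Young HSCs read 35.3% and 38.8% and old HSCs 40.6% and 40.2%. The groups overlapped by 1 library: 10 of 11 transplanted libraries lay above all 4 young and old libraries, and replicate 2 of 10 old HSCs did not. The mean difference over all of them was 13.96 points. For 10 old HSCs it was 4.55 points, and −0.725 points without replicate 1 of that group. That overlap and that change of sign held on the 4 CpGs shared by all 25 libraries. On the 7 CpGs shared by the young, old and transplanted libraries, 10 old HSCs read 45% and 39.1%, above all old (31.1% and 29.3%) and young (31.3% and 31.9%) libraries, and 10 old HSCs minus old was 11.8 points.

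In the proximal tile all 11 transplanted libraries lay between 9.26% and 21.2%, against 4.44% and 4.38% in young HSCs and 2.74% and 4.72% in old HSCs. The level was 10.2%, 19.01% and 15.1% after 10 young HSCs, 21.2% and 11.7% after 10 old HSCs, and 20.7%, 19.2% and 9.26% after 500 old HSCs. The mean difference was 11.7 points. The island tile beside it had 0.245% to 1.09% in transplanted and 0.807% to 1.62% in young and old HSCs, a difference of −0.545 points, so it did not share the higher level. No CpG read in all libraries lay between 125201800 and 125202446, so where the higher level ended was not located.

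Single CpGs of the window varied widely. Of the 18 CpGs read in all libraries, 17 had a higher mean level in the 11 transplanted than in the 4 young and old libraries, and for 7 of them the libraries did not overlap. Of these 7, the distal tile held 5 and the proximal tile 2. This contrast chose the window, and the shares over all CpGs of the series were not computed. The counts are therefore a description of the window only. The difference was largest at 125198074, with 75.9% in transplanted libraries (55.6% to 97.1%) and 11.8% in young and old libraries (5.77% to 17.6%), on 17 to 140 reads. Next came 125198090, with 77.9% and 18.6%, and 125198103, with 79.3% and 31.2%. At the low end stood 125200171, with 83.02% in transplanted and 83.9% in young and old libraries, which was thus highly methylated in all of these groups. The other 2 of the 3 smallest differences were at 125201800, with 3.78% and 1.83%, and at 125201709, with 4.56% against 0% in all 4 young and old libraries.

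**Figure D2:**
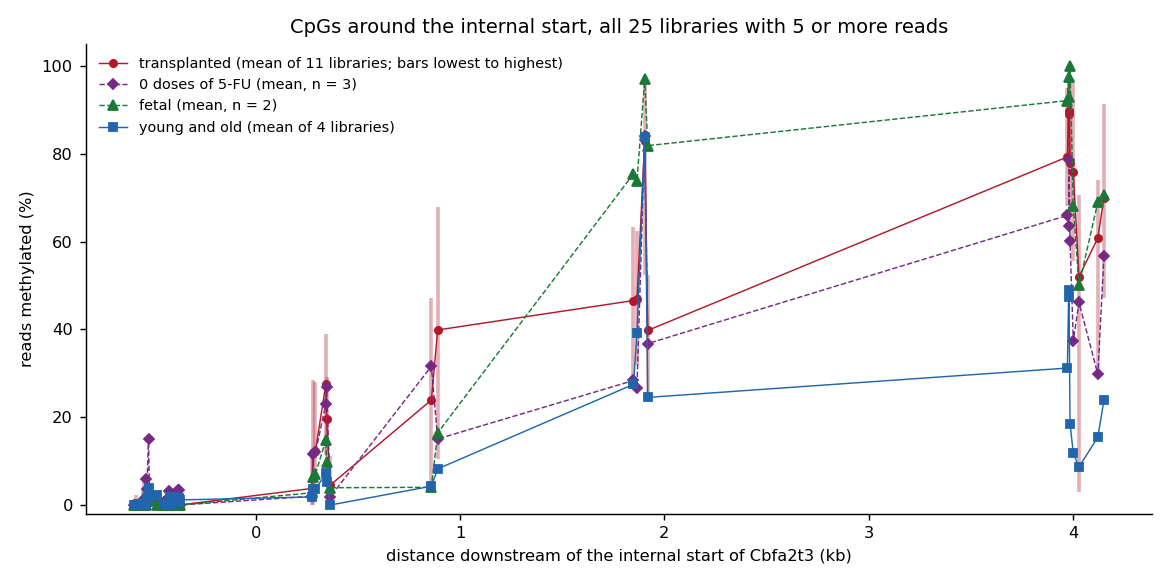
Level of each CpG with at least 5 reads in all 25 libraries (percent of reads, vertical axis) against its distance downstream of the internal start (kb, horizontal axis; negative is upstream), with vertical bars from the lowest to the highest of the 11 transplanted libraries. Transplanted libraries (red circles) stand above young and old libraries (blue squares) at 17 of the 18 CpGs of the window, while fetal libraries (green triangles) stand above young libraries at all 18. The window was chosen by the contrast of transplanted with young and old libraries.

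Just outside the window, the tile chr8:125197001-125198000 had 2 shared CpGs and therefore missed the minimum. Its level was 38.2% to 80% in the 11 transplanted libraries, with a median of 65.6%, and 8.42% to 28.7% in the 4 young and old libraries, so the higher level ran past the window's edge. Elsewhere in the locus, upstream and downstream, most tiles did not share the gain. By the mean of 10 young HSCs minus young and 10 old HSCs minus old, only 2 of the 9 tiles outside the window had a positive value, chr8:125190001-125191000 with 5.46 and 9.05 points and chr8:125222001-125223000 with 2.02 and 1.27 points. The lowest values were at chr8:125170001-125171000, with −18.1 and −18.0 points, chr8:125175001-125176000, with −3.35 and −30.4 points, and chr8:125158001-125159000, with −4.36 and −8.90 points. Over all 90382 tiles of that fit, the medians of these differences were −4.43 and −6.41 points. Of the 9 tiles outside the window, 7 thus had the sign of the genome's median, and 2 had the sign of the window. The share of all tiles with either sign was not computed. Signs near 0% carry little weight: the island tile, with −0.709 and −0.815 points, is among the 7. The tile chr8:125222001-125223000, with group means of 1.46% to 4.40%, is among the 2.

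**Figure D3:**
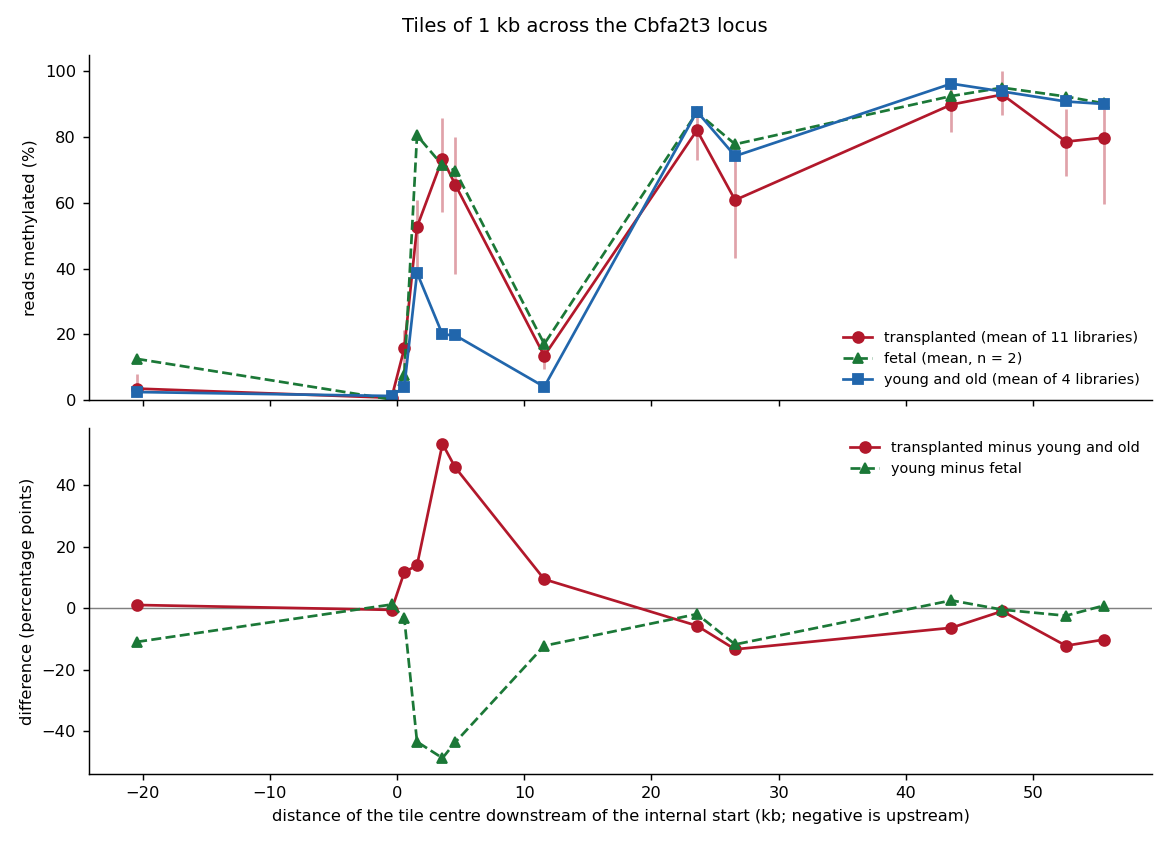
Tiles of the locus by the distance of their centre downstream of the internal start (kb, horizontal axis; negative is upstream): level in percent of reads (top, mean of the group with bars from the lowest to the highest transplanted library) and differences in percentage points (bottom). Transplanted minus young and old peaks at 53.4 points in the distal tile; the line for young minus fetal is lowest in the same tile and both lines are close to 0 over the island. Tiles with 2 shared CpGs are drawn too.

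Other contrasts than the one that chose the window were tested in all tiles of the 19 autosomes with a quasi-binomial model, and a tile was called at a Benjamini-Hochberg adjusted p under 0.05 with at least 10 points. The young, old and transplanted libraries chose the window. For its 3 tiles, contrasts among these libraries or with other groups are therefore given as values with no p. In young HSCs the distal and the middle tile read lower than in fetal HSCs, and the proximal tile differed little. With the 7 CpGs shared by the 6 libraries of this fit, the distal tile averaged 21.3% ± 2.38 in young HSCs and 65.3% ± 3.19 in fetal HSCs (SD, n = 2 each), a difference of −44.0 points. The middle tile averaged 31.6% ± 0.431 in young HSCs and 65.4% ± 6.15 in fetal HSCs, a difference of −33.8 points. The proximal tile read 3.75% and 4.34% in young and 5.49% and 7.23% in fetal HSCs, −2.32 points. In all 3 tiles 2 of 2 young libraries lay below both fetal libraries. Tiles outside the window, such as chr8:125170001-125171000 and chr8:125190001-125191000, had the same order, and its share over all tiles was not computed. At all 18 CpGs of the window the fetal mean was above the young mean, though at 125201800 they were nearly equal (2.78% and 2.77%). The young libraries helped choose the window for their low level, so these counts are a description.

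Outside the window, 1 of 15 tiles of the locus was called for young minus fetal, and it fell, against 5.22% called of 100896 tiles in either direction. Limma on transformed levels called 0 of the 15. An unadjusted p under 0.05 was found in 4 of the 15 by the quasi-binomial test, against 16343 of the 100896 tiles. By limma it was found in 6 of the 15, against 22118 of the 100896. The called tile was chr8:125175001-125176000, with 57.4% ± 9.83 in young and 79.2% ± 11.4 in fetal HSCs (−21.8 points, adjusted p = 0.033, limma-moderated test). Its libraries read 50.5% and 64.4% in young and 87.3% and 71.2% in fetal HSCs, and its call was lost in 5 of the alternatives, with an adjusted p between 0.0567 and 0.52 in these. The tile chr8:125222001-125223000, beside the upstream start, had an adjusted p of 0.0468 in the limma-moderated test and a difference of −9.60 points, just under the 10 points needed. Its fetal libraries differed, at 4.26% and 17.9%, whereas its young libraries read 2.17% and 0.753%.

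The window in transplanted HSCs did not have the fetal profile throughout. In the middle tile all 11 transplanted libraries, at 39.7% to 60.7%, lay below both fetal libraries, at 68.2% and 92.7%. In the proximal tile all 11, at 9.26% to 21.2%, lay above both fetal libraries, at 7.33% and 8.14%. In the distal tile they overlapped, with 5 libraries above and 2 below both fetal ones. These differences between transplanted and fetal libraries were not tested, and the shares of all tiles with such an order were not computed. Outside the window, all 11 lay below both fetal libraries at chr8:125149001-125150000 (2 shared CpGs). In the island tile 10 of 11 lay above both. Over tiles with a mean level between 20% and 80%, the median level was 58.7% to 63.2% in the transplanted groups and 69.2% in fetal HSCs.

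Outside the window, ageing by itself gave no call in the locus. For old minus young HSCs, 0 of 15 tiles there were called by the quasi-binomial test, against 2.87% of all 100896 tiles. An unadjusted p under 0.05 was found in 2 of the 15, against 14487 of all tiles. Limma on transformed levels called 0 of the 15 and had 2 under 0.05, against 15791 of all tiles. The low level of young and old HSCs chose the window, so its tiles are given as values with no p. The distal tile read 16.7% ± 4.28 in old and 21.3% ± 2.38 in young HSCs, −4.60 points. The libraries of both ages overlapped there. The middle tile differed by −1.36 points, with 31.1% and 29.3% in old and 31.3% and 31.9% in young HSCs. The proximal tile differed by −1.09 points, with 2.55% and 3.36% in old and 3.75% and 4.34% in young HSCs. In these last tiles both old libraries lay below both young ones by small amounts, and the share of all tiles with that order was not computed. The lowest adjusted p was at chr8:125175001-125176000, with 77.8% ± 1.61 in old and 57.4% ± 9.83 in young HSCs (20.4 points, adjusted p = 0.124, limma-moderated test). This tile became a call, at 27.3 points and an adjusted p of 0.0406, without young replicate 2.

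Mice kept for 6 more months without drug had higher mean levels than young mice in the distal and the proximal tile, with a wide spread between libraries. In the distal tile the level averaged 50.2% ± 17.7 with 0 doses (n = 3) and 22.6% ± 4.55 in young HSCs (n = 2), and every library with 0 doses lay above both young libraries. The difference was 27.6 points. Replicate 1 with 0 doses, at 29.8%, stood well apart from the others at 60.9% and 60.0%, and without it the difference was 37.8 points. The proximal tile averaged 13.8% ± 7.08 with 0 doses and 4.41% ± 0.0396 in young HSCs (9.41 points), and replicate 1 was again the lowest, at 5.68%. The middle tile averaged 37.2% ± 3.74 with 0 doses and 37.0% ± 2.49 in young HSCs. The order of the libraries in the distal tile was also seen outside the window, at chr8:125175001-125176000. There the libraries read 85.3%, 77.4% and 79.3% with 0 doses and 56.6% and 75.4% in young HSCs. The share of all tiles with this order was not computed, and the young libraries helped choose the window for their low level. Outside the window, 0 of 8 tiles of the locus were called, against 0.0874% of 57204 tiles. Of the 8, 0 had an unadjusted p under 0.05 by the quasi-binomial test and 0 by limma, which also called 0. Over all 57204 tiles, 3312 had such a p by the quasi-binomial test and 5273 by limma.

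Set against the mice with 0 doses, the level after 10 young HSCs was higher in the distal tile, at 77.6% ± 9.60 (n = 3) and 50.2% ± 17.7 with 0 doses (n = 3), a difference of 27.3 points. It was 17.1 points without replicate 1 of the 0-dose group. In the middle tile the difference was 17.4 points, with 54.6% ± 5.76 after 10 young HSCs and 37.2% ± 3.74 with 0 doses, and the libraries did not overlap. In the proximal tile it was 0.928 points, with 14.7% ± 4.43 and 13.8% ± 7.08, and its sign turned to −3.14 points without replicate 1 of the 0-dose group. These values share libraries with the contrast that chose the window and were not tested, and the share of all tiles without overlap was not computed.

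Across doses of 5-FU the group means of the 3 tiles of the window went different ways, and no tile was called. In the distal tile the group means were 50.2% ± 17.7, 49.5% ± 9.54 and 51.0% ± 9.93 with 0, 2 and 4 doses. In the middle tile they were 37.2% ± 3.74, 49.1% ± 2.51 and 52.7% ± 0.997 with 0, 2 and 4 doses, and every library with 2 or 4 doses lay above every library with 0 doses. The same order was seen outside the window at chr8:125158001-125159000, and its share over all tiles was not computed. In the proximal tile the group means were 13.8% ± 7.08, 7.77% ± 2.55 and 2.59% ± 0.0593. The difference of 4 minus 0 doses was 15.5 points in the middle tile (adjusted p = 0.578) and −11.2 points in the proximal tile (adjusted p = 0.463) in the limma-moderated test. For 4 minus 0 doses 0 of 11 tiles were called, against 0.00175% of all tiles. An unadjusted p under 0.05 was found in 3 of the 11, against 4713 of all 57204 tiles. Limma on transformed levels called 0, with a lowest adjusted p of 0.0555. By limma, 4 of the 11 were under an unadjusted p of 0.05, against 12683 of all tiles. For 2 minus 0 doses 0 of 11 were called, against 0.00699% of all tiles. There 1 of the 11 was under 0.05 by the quasi-binomial test, against 2725 of all tiles. By limma it was 3 of the 11, against 7939 of all tiles, and limma called 0 of the 11. The 4-dose and 0-dose libraries were among the shallowest at the locus. They had 166 and 118 CpGs of at least 5 reads with 4 doses and 161, 164 and 168 with 0 doses, against up to 213 in other libraries.

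**Figure D4:**
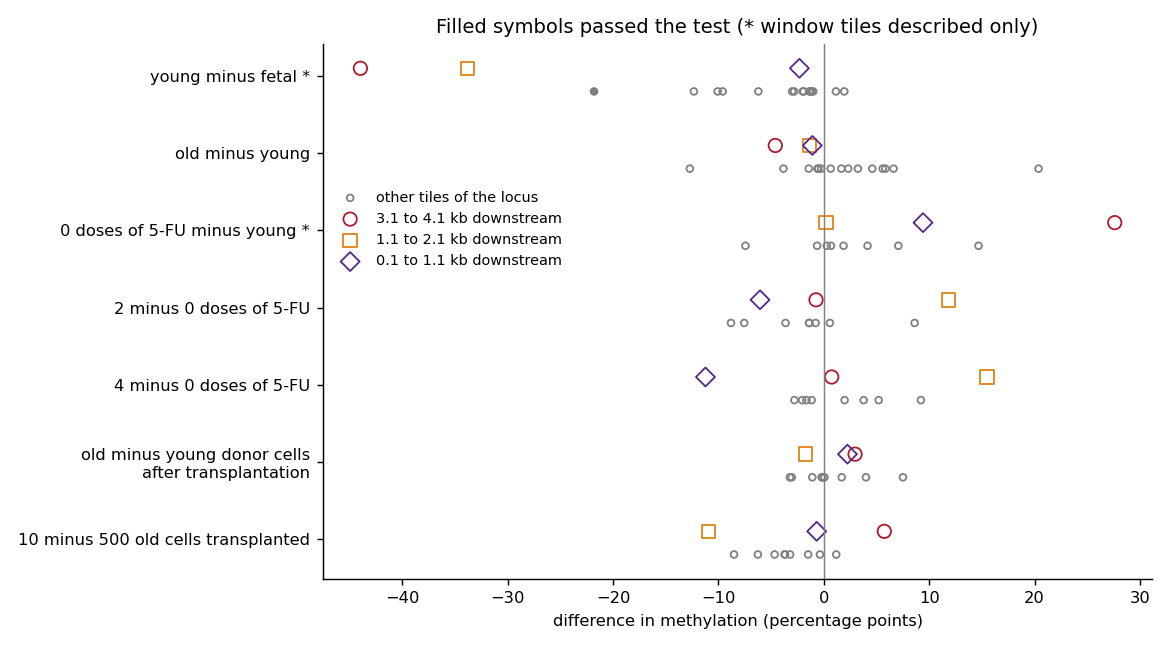
Difference in level (percentage points, horizontal axis) of each tile of the locus in 7 comparisons (rows), with large symbols for the tiles of the window, named by distance downstream of the internal start, and small circles for the others. Filled symbols passed the test, which 1 small circle did, in young minus fetal. In the rows with an asterisk the tiles of the window carry no test, and in old minus young and the rows of transplanted libraries they are described only as well. The distal and the middle tile stand at −44.0 and −33.8 points in young minus fetal.

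Neither the age of the donor nor, for old donors, 10 against 500 cells gave a call among transplanted libraries. Numbers of young cells were not compared by a test. The gain after every transplantation chose the window, so its 3 tiles are given here as values with no p. Outside it, 0 of 9 tiles of the locus were called for old minus young donor cells, against 0% of 93599 tiles. Of the 9, 0 had an unadjusted p under 0.05 by the quasi-binomial test or by limma. Over all tiles, 4379 had such a p by the quasi-binomial test and 7263 by limma. In the distal tile, on 7 CpGs, the level averaged 72.3% ± 5.86 for old donors (n = 6) and 72.7% ± 12.7 for young donors (n = 5). With the number of cells in the model it was 2.96 points more for old donors. The sign of this difference turned to −3.31 points without the library of 500 young HSCs, in a range of −3.31 to 5.19 over single libraries left out. For 10 minus 500 old HSCs, 0 of 9 tiles outside the window were called, against 0% of 90382 tiles. Of the 9, 0 had an unadjusted p under 0.05 by the quasi-binomial test, against 5762 of all tiles. By limma it was also 0, against 9368 of all tiles, and limma called 0 of the 9. The middle tile of the window averaged 42.0% ± 4.18 after 10 old HSCs (n = 2) and 53.0% ± 3.68 after 500 (n = 3), a difference of −10.9 points. The distal tile differed by 5.74 points, with 75.8% ± 3.92 after 10 and 70.1% ± 7.63 after 500 old HSCs, and by 1.46 to 8.79 points with single libraries left out (1.46 without replicate 3 of 500 old HSCs).

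The tiles elsewhere that followed the distal tile most closely were few. Among 10484 autosomal tiles that span at least 30 points over the 25 libraries, 4 had a Pearson correlation with it of 0.8 or more, and the median correlation was −0.371. The libraries share depth and the mix of groups, so the correlation is a description. The 5 highest were chr7:86542001-86543000 (0.85), chr11:115969001-115970000 (0.81), chr11:88552001-88553000 (0.81), chr12:17009001-17010000 (0.81) and chr14:48015001-48016000 (0.78). The first had 52.1% to 81.6% in the transplanted and 28.0% to 35.6% in the young and old libraries, and the tile on chromosome 12 had 39.3% to 69.2% and 3.77% to 11.4%. Within the locus the distal tile correlated at 0.70 with the proximal and at 0.54 with the middle tile over the same 25 libraries.

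A library held 22835325 to 105187091 reads, the median CpG was covered by 10 to 54 of them, and 118 to 213 CpGs of the locus reached 5 reads. No pair of libraries had identical counts. Over tiles whose mean level lay between 20% and 80%, the median level was 58.7% to 63.2% in the 6 transplanted groups, against 73.9% in old and 68.2% in young HSCs; the part of this shift in the values of the locus was not tested.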

How the data were processed

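The 25 libraries were RRBS libraries of HSCs made with a protocol for few cells, as given in the labels' protocols. Positions refer to mm9, per the submitters' processing notes. For the aligner, the caller and the treatment of duplicates, nothing is given in the sources used here. Per CpG, the authors deposited methylated and total read counts and a whole-number score; that deposited score was the methylated share of the counts, scaled up and rounded down, and it was not used. The interval, tiles and lists were chosen with earlier results of these data known.

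Reads were added up per tile of 1000 bp over CpGs that reached 5 reads in all libraries of a fit. Tiles of the 19 autosomes that kept 3 or more CpGs were fitted with a quasi-binomial model. Williams weights allowed for reads varying together within a library, and limma moderated the dispersion across tiles. Young, old and transplanted libraries chose the window, so contrasts of its tiles that use them are described without a test, although tests had been planned. P-values came from an F test, adjusted by Benjamini-Hochberg across all tiles. The fits held fetal, young and old (6 libraries), young with the 5-FU groups (10), young, old and the transplanted groups (15), and the transplanted libraries with donor age and log10 of the cell number (11). Their prior degrees of freedom were 11.2, 5.00, 11.2 and 12.3. The prior was taken from tiles with a level of 10% to 90%. An earlier version used all tiles, did poorly when tested on simulated data, and was replaced after its results had been seen. Alternatives were a minimum of 10 reads, a grid shifted by 500 bp, leaving out CpGs over 500 reads, limma on arcsine-square-root levels, a replicate block, fits of the compared groups alone, and leaving out each library. Named tiles are those of the window and those called elsewhere, and for transplantation the extremes of the mean of both 10-cell differences. Named CpGs are the 3 highest and 3 lowest differences in the window. No mm9 annotation was used, so exons, introns and partner genes of Cbfa2t3 are not analysed here. Tools were Python 3.11.15 (numpy 2.4.6, scipy 1.17.1, pandas 2.3.3, matplotlib 3.10.9) and R 4.3.3 with limma 3.58.1.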

Additional observations from a re-analysis of the deposited data

How the results depend on the processing

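For young minus fetal HSCs, the call outside the window, at chr8:125175001-125176000, was lost with at least 10 reads per CpG (−16.5 points, adjusted p = 0.118), with limma (0.138), with the compared groups alone (0.0567) and without fetal or young replicate 1 (0.52 and 0.204). The counts below take the whole locus, with the distal and the middle tile among the 3 past the threshold for young minus fetal. As the young, old and transplanted libraries chose the window, these 2 support nothing. Nor does a lack of calls in its tiles in contrasts of these libraries. Leaving out single libraries gave 2 to 3 calls for young minus fetal and 0 to 1 for old minus young HSCs. The other 5 comparisons had 0 calls in the locus under every alternative. Taking the prior from all tiles, added after the data were seen, gave 3 calls for young minus fetal and 0 elsewhere in the locus. The grid shifted by 500 bp gave 4 calls for young minus fetal and 0 in the other comparisons. Under the alternatives, calls outside the window for young minus fetal were not limited to chr8:125175001-125176000. The same replicate numbers did not pair libraries (correlations of deviations −0.0663 to 0.136), and the replicate block gave 3 calls for young minus fetal and 0 elsewhere. Over all tiles, counts moved by more than 1.5 times: limma called 3364 tiles for young minus fetal and 406 for old minus young, against 5267 and 2893. For 0 doses minus young, 2 minus 0 and 4 minus 0 doses it called 252, 116 and 584 tiles, against 50, 4 and 1; the replicate block called 1, 1 and 0, leaving out CpGs over 500 reads 11, 0 and 0, and the compared groups alone 339, 3 and 0. At least 10 reads per CpG called 28, 5 and 5, and the prior from all tiles 24, 3 and 1. Leaving out single libraries called 2007 (without fetal replicate 1) to 4811 tiles for young minus fetal and 273 (without old replicate 1) to 3546 for old minus young, with 1162 without old replicate 2 and 1420 without young replicate 1. It called 0 tiles for 0 doses minus young whichever young or 0-dose library was left out, 1 to 5 for 2 minus 0 and 0 to 11 for 4 minus 0 doses. The shares of called tiles given beside the locus rest on the counts with all libraries.

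Over the whole window, with each library's own CpGs, the difference of 10 young HSCs minus young was 23.6 points, and 16.3 as a mean of CpG levels. For 10 old HSCs minus old it was 21.0 points, 22.2 with at least 10 reads, 20.6 as a mean of CpG levels, and 20.6 to 21.5 leaving out single libraries. For 10 young HSCs minus 0 doses of 5-FU it was 13.8 points and 4.85 as a mean of CpG levels. The sign turned in the middle tile for 10 old HSCs minus old (−0.725 points without replicate 1 of 10 old HSCs, in a range of −0.725 to 9.82 over single libraries left out, on the 4 CpGs shared by all 25 libraries; on 7 CpGs shared by 15 libraries it was 11.8 with none left out) and in the proximal tile for 10 young HSCs minus 0 doses (−1.20 without replicate 2 of 10 young HSCs, −3.14 without replicate 1 with 0 doses, in a range of −3.14 to 3.28); the cause was not tested. Among differences that were not called, leaving out single libraries also turned the sign in the distal tile for 2 minus 0 (−10.96 to 4.58) and 4 minus 0 doses (−9.47 to 7.77) and for old minus young donors (−3.31 to 5.19), in the middle tile for 0 doses minus young (−1.55 to 2.33) and donors (−4.47 to 0.42), and in the proximal tile for 10 minus 500 old HSCs (−3.88 to 2.37). Depth limits the upstream promoter, with 10 to 184 reads, and tiles read in few libraries, such as chr8:125148001-125149000 and chr8:125153001-125154000 in 1 library each.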

Other observations

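Another stretch of low methylation lay 11.6 kb downstream of the internal start, at chr8:125190001-125191000, beside a tile (chr8:125191001-125192000) that read 79.7% in young HSCs over each library's own CpGs. On 2 CpGs shared by all libraries it read 9.57% to 19% in the 11 transplanted libraries, with a median of 14%, against 2.61% to 5.32% in the young and old libraries, so that the libraries did not overlap. The same contrast chose the window, and no share over all tiles with 2 shared CpGs was computed for the counts of libraries given here. Fetal HSCs read 13.0% and 21.2%. Of the 8 libraries of the 5-FU series, 7 lay above all young and old libraries, and 1 with 4 doses had no methylated read of 43, which allows a level of up to 6.98%. On 3 CpGs, young minus fetal was −10.1 points (adjusted p = 0.0654, limma-moderated test) and was not called.

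Between both starts, the tile chr8:125215001-125216000 went the other way. Over each library's own CpGs with at least 5 reads, in 24 libraries, its mean was 54.8% after 10 young HSCs, 40.5% after 10 old HSCs and 54.9% after 500 old HSCs. It was 75.8% in old and 77.5% in young HSCs. These means rest on different CpGs from library to library and were not tested.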
